A study of Mus musculus with 12 samples.

Results

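Cortical astrocytes of C57BL/6 mice carrying a short hairpin RNA against PTB (shPTB) for 4 weeks in neuronal differentiation medium were set against mock astrocytes of the same origin kept in growth medium. The groups were taken from the library titles and hold 2 libraries each, so 4 of the study's 12 libraries. The other 8 are cortical astrocytes at 2 weeks of shPTB and midbrain astrocytes as mock and at 2 and 4 weeks, and they enter only where named. Hairpin and medium changed together, so their effects cannot be told apart. No week is given for the mock libraries, so time in culture cannot be told apart from them either. Whether the 2 libraries of a group come from different cultures or mice is not in the labels, and the p-values therefore rest on library-to-library spread that may be technical. The study asks how expression moves from astrocyte to neuron when PTB is depleted.

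PTB, the product of Ptbp1, binds pyrimidine-rich stretches of RNA and holds neuronal exons and microRNA target sites in a non-neuronal state. Neurons lose it and use the paralogue Ptbp2, and REST is a transcriptional repressor of neuronal genes in other cells. Astrocytes take up glutamate and potassium, feed neurons lactate and lipid, and in culture can divide and are commonly accompanied by microglia, oligodendrocyte precursors, ciliated ependymal cells and fibroblasts.

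RNA was measured by sequencing cDNA primed with a biotinylated primer, and levels are CPM, reads per 1000000 after TMM scaling, which sets library sizes by the bulk of genes. The mock libraries held 10197614 and 10318422 reads and the 4-week libraries 7958229 and 7666778 reads. A count of 0 in a library allows up to 3 reads, or 0.174 to 0.576 CPM in these 4 libraries, and such floors, like the exact 95% intervals, allow for counting error alone. Of 14607 genes tested, 2705 were higher (18.5%) and 3048 lower (20.9%) at 4 weeks at an adjusted p under 0.05, and the words rose and fell are kept for such genes. Of these calls, 1961 and 2670 were at least 2-fold. Mitochondrially encoded genes took 18.9 and 22.7% of mock reads and 47.7 and 48.3% of 4-week reads. Where a group held 1 to 3 reads of a gene, the ratio of levels is given with its counting interval, and where it held none, a bound set by 3 reads over the group. The median gene stood at -0.12 on the log2 scale, and at -1.21 when libraries were scaled to total reads, where 854 genes were called higher and 8347 lower. Of all calls, 9.28% were then higher in place of 47.0%. All 3048 falls and 854 of 2705 rises were also called under that scaling, and 114 rises became falls. The mock pair differed by more than 2-fold in 14.3% of genes and the 4-week pair in 5.68%. Beside a gene stand the alternatives under which it no longer passed, with the log2 fold change then in parentheses. They are scaling to total reads, an offset for effective transcript length in each library, a fit of the compared groups alone, DESeq2, and leaving out a library. Shared 3′ sequence is the percentage of a gene's words of 31 bases, taken over the final 500 bases of its transcript, that occur in another gene, given where it is over 20% on either strand. Library strand is not stated, so reads of genes on opposite strands cannot be told apart either. Shared sequence was not computed for some named genes, among them Myl9, Ccnb2, Cdk1, Mcm6, Tap1, P2ry12, Glul, Chrdl1 and H2-T23. An absent percentage there does not mean that no sequence is shared. In bulk RNA, fewer cells of a type and less RNA per cell cannot be told apart.

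**Figure D1:**
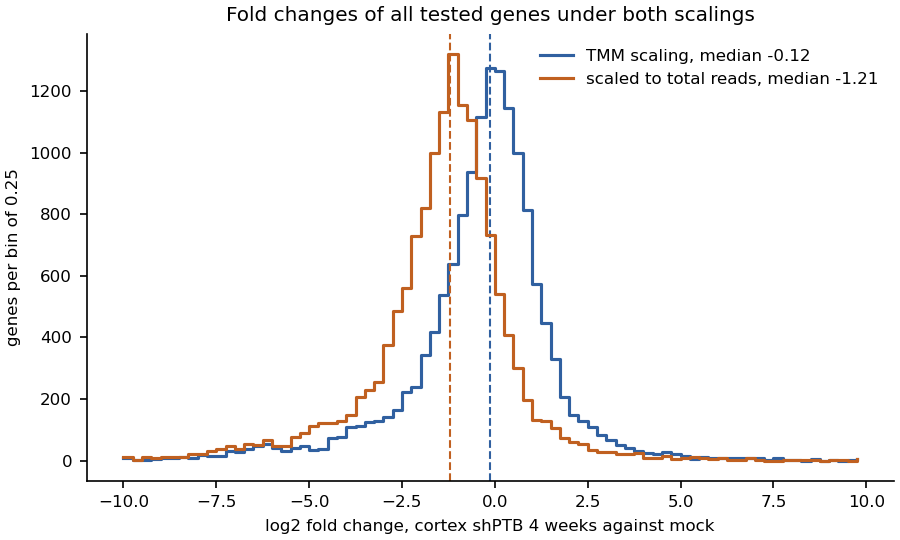
Number of tested genes (vertical axis) by log2 fold change at 4 weeks against mock (horizontal axis, bins of 0.25) with TMM scaling and scaled to total reads, with values beyond 10 placed in the outer bins. The whole distribution lies lower when scaled to total reads, with its median at -1.21 in place of -0.12.

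The hairpin's target Ptbp1 (ENSMUSG00000006498.16) lies on the plus strand of chromosome 10 from 79854427 to 79864771 in GRCm38. It stood at 173 and 251 CPM in mock and 89.2 and 90.5 CPM at 4 weeks (log2 fold change -1.24 ± 0.21, adjusted p = 0.000814). Both 4-week libraries lay below both mock libraries, and RNA of the gene was still present. It was 73 and 73.5 CPM in cortex at 2 weeks, 208 and 250 CPM in midbrain mock, 105 and 90.8 CPM in midbrain at 2 weeks and 169 and 155 CPM in midbrain at 4 weeks, below mock in every shPTB library. Ptbp2, the neural paralogue, rose from 5.69 and 10.4 to 32.1 and 34 CPM (log2 fold change 2.04 ± 0.26, adjusted p = 0.000134). Rest, the neuronal repressor, fell from 8.19 and 4.14 to 2.38 and 1.15 CPM (log2 fold change -1.80 ± 0.52, adjusted p = 0.0171). Ptbp3, a further paralogue, fell from 14.4 and 15.6 to 6.59 and 5.76 CPM (log2 fold change -1.27). Of 16 genes of the PTB and REST axis, all tested, 2 rose and 4 fell, with a median log2 fold change of -0.33 (1 higher and 13 lower with a median of -1.43 when scaled to total reads). The REST co-repressor Rcor1 and the deacetylase Hdac1 did not pass, at log2 fold changes of -0.58 and -0.08. Of 17 neuronal RNA-binding protein genes, 14 were tested, 2 rose and 5 fell, with a median log2 fold change of -0.90 (0 higher and 11 lower with a median of -1.91 when scaled to total reads). Among them the CELF family member Celf4 rose from 34.1 and 64 to 123 and 117 CPM. Elavl3, which codes for a neuronal mRNA-stabilising protein, fell from 29.7 and 37.9 to 15 and 15 CPM. Mbnl2, a muscleblind splicing factor, fell from 94.6 and 83.9 to 25.6 and 28.2 CPM. An opposite-strand gene held shared 3′ sequence (28.3% for Ptbp1). Celf4 did not pass scaled to total reads (0.27). Ptbp1 and Ptbp2 did not pass with an offset for transcript length (-0.78 and 0.55). Rest did not pass without cortex mock library 1 (-1.22) or without 4-week library 2 (-1.38).

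Most defining markers of astrocytes were present in both groups, and they moved both ways. Of 30 astrocyte markers, 28 were tested, 8 rose and 7 fell, with a median log2 fold change of 0.16 (4 higher and 15 lower with a median of -0.93 when scaled to total reads). Gfap, the intermediate filament of astrocytes, was 11107 and 19407 CPM in mock and 12425 and 12606 CPM at 4 weeks and did not pass (log2 fold change -0.29 ± 0.28, adjusted p = 0.454). The water channel gene Aqp4 fell from 336 and 414 to 196 and 194 CPM. The folate enzyme gene Aldh1l1 fell from 129 and 61.7 to 23.8 and 21.1 CPM, with no overlap between the groups. The glutamate transporter genes parted: Slc1a3 fell from 275 and 246 to 108 and 100 CPM (log2 fold change -1.32 ± 0.17, adjusted p = 0.000129). Slc1a2, the main transporter of mature astrocytes, rose from 69.3 and 64.9 to 150 and 151 CPM (log2 fold change 1.16 ± 0.16, adjusted p = 0.000212). Gpr37l1, an orphan receptor of astrocytes, rose from 279 and 530 to 4213 and 4397 CPM (log2 fold change 3.41 ± 0.31, adjusted p = 1.34e-05). The connexin gene Gjb6 rose from 1.39 and 0.398 to 9.34 and 11.5 CPM. The connexin gene Gja1 fell from 55.6 and 32.5 to 25.5 and 20.2 CPM. S100b, a calcium-binding protein of glia, rose from 2.38 and 3.66 to 18.1 and 15 CPM. Slc7a10 and Grin2c, markers of adult astrocytes, were at or under the floor of 3 reads in at least 3 of the 4 libraries. Shared sequence on the opposite strand was 45.7% for Aldh1l1. Gja1 did not pass fitted on the compared groups alone (-1.0), without cortex mock library 1 (-0.52) or without 4-week library 2 (-0.80). Slc1a2 did not pass scaled to total reads (0.07).

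Of 20 glial transcription factor genes, all tested, 4 rose and 10 fell, with a median log2 fold change of -0.35 (3 higher and 14 lower with a median of -1.46 when scaled to total reads). Sox9, the regulator of the astrocyte lineage, was 364 and 478 CPM in mock and 894 and 944 CPM at 4 weeks (log2 fold change 1.13). Nfix, of the nuclear factor I family, rose from 372 and 606 to 1307 and 1358 CPM (log2 fold change 1.45 ± 0.24, adjusted p = 0.000814). Nfia of the same family fell from 275 and 196 to 158 and 146 CPM (log2 fold change -0.63 ± 0.23, adjusted p = 0.0447). Sox21 rose from 13.8 and 15.9 to 45.6 and 50.5 CPM. Sox10, the factor of the oligodendrocyte lineage, rose from 4.65 and 6.68 to 112 and 110 CPM (log2 fold change 4.30 ± 0.25, adjusted p = 7.02e-07). Id1, an inhibitor of basic helix-loop-helix factors and a target of BMP signals, fell from 12.4 and 7.08 to 2.75 and 3.27 CPM. Its relative Id3 fell from 55 and 22 to 8.06 and 5.57 CPM. Nfia did not pass fitted on the compared groups alone (-0.68), without cortex mock library 1 (-0.38), without 4-week library 1 (-0.70) or without 4-week library 2 (-0.58). Sox9 did not pass scaled to total reads (0.07) or with an offset for transcript length (0.56).

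Neuronal genes moved in both directions. Of 26 pan-neuronal markers, 22 were tested, 5 rose and 7 fell, with a median log2 fold change of -0.14 (3 higher and 12 lower with a median of -1.25 when scaled to total reads). Thy1, a surface glycoprotein of neurons that fibroblasts also carry, rose from 644 and 865 to 4762 and 4749 CPM (log2 fold change 2.66 ± 0.22, adjusted p = 6.05e-06). The microtubule-binding protein gene Mapt rose from 63.3 and 101 to 243 and 277 CPM (log2 fold change 1.67). Of the 7 falls, Dcx, a microtubule protein of migrating young neurons, fell from 29.6 and 30.9 to 2.38 and 2.31 CPM (log2 fold change -3.68). Tubb3 fell from 47.5 and 77.3 to 8.24 and 6.53 CPM (log2 fold change -3.07). Stmn2, a microtubule regulator of growing axons, fell from 50.4 and 59.6 to 4.4 and 3.27 CPM (log2 fold change -3.84). Dpysl3, of the collapsin response family, fell from 113 and 75.1 to 20.1 and 16.5 CPM (log2 fold change -2.36). Map2 (-0.33) and the marker of mature neurons Rbfox3 (0.30, 0.29 and 0.318 against 0.183 and 0.576 CPM) did not pass. The summed level of the markers was 1599 and 2050 CPM in mock, 5286 and 5652 CPM at 2 weeks and 5813 and 5796 CPM at 4 weeks. Without Thy1 it was 955.4 and 1186 CPM in mock and 1051 and 1047 CPM at 4 weeks, and the groups overlapped. This sum was chosen after the values were seen. All marker sums here and below are given under TMM scaling only, with factors of 1.69 and 1.22 in mock and 0.687 and 0.68 at 4 weeks. Scaled to total reads, the 4-week sums would stand lower relative to mock. Mapt did not pass with an offset for transcript length (0.70).

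Genes of transmitter release moved both ways as a list, depending on the scaling. Of 28 synaptic vesicle and release genes, 25 were tested, 11 rose and 1 fell, with a median log2 fold change of 0.80 (6 higher and 9 lower with a median of -0.33 when scaled to total reads). Vamp2, the vesicle SNARE of synapses, rose from 210 and 585 to 2068 and 2003 CPM (log2 fold change 2.36 ± 0.43, adjusted p = 0.00135). Vamp1 rose from 6.51 and 16.1 to 91.6 and 86.9 CPM (log2 fold change 2.99). The synaptotagmin family gene Syt4 rose from 0.29 and 0.557 to 11 and 9.03 CPM (log2 fold change 4.57 ± 0.34, adjusted p = 3.37e-06). The neuronal dynamin gene Dnm1 rose from 1.51 and 0.398 to 10.8 and 9.03 CPM. Snap25, the plasma membrane SNARE of neurons, was 0.232 and 0.398 CPM in mock and 0.549 and 0.769 CPM at 4 weeks and did not pass (log2 fold change 1.07 ± 0.78, adjusted p = 0.303). Of 22 postsynaptic density genes, 20 were tested, 5 rose and 3 fell, with a median log2 fold change of 0.06 (1 higher and 9 lower with a median of -1.01 when scaled to total reads). Dlgap1, a scaffold protein gene, rose from 2.15 and 2.07 to 9.16 and 8.46 CPM. Camk2b, a calcium-dependent kinase, fell from 18.1 and 45.1 to 6.59 and 7.49 CPM. Nrxn3, a synaptic adhesion gene, fell from 14.9 and 11 to 4.4 and 4.23 CPM.

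Of 30 voltage-gated channel genes, 23 were tested, 2 rose and 7 fell, with a median log2 fold change of -0.32 (1 higher and 14 lower with a median of -1.40 when scaled to total reads). Cacnb1, a beta subunit of calcium channels, rose from 20.5 and 23 to 94 and 74.4 CPM (log2 fold change 1.95 ± 0.18, adjusted p = 1.68e-05). Its relative Cacnb3 fell from 62 and 62.1 to 20.3 and 23.8 CPM (log2 fold change -1.49). Kcnd3, an A-type potassium channel gene, fell from 9.18 and 11.9 to 0.916 and 0.384 CPM (log2 fold change -3.98 ± 0.48, adjusted p = 9.72e-05). Scn3b, a sodium channel beta subunit gene, fell from 9.01 and 6.36 to 0.366 and 0.192 CPM (28-fold lower, interval 9.48 to 137, adjusted p = 0.000283). The pore-forming sodium channel gene Scn2a was 1.16 and 1.59 CPM in mock and 1.28 and 0.961 CPM at 4 weeks and did not pass (log2 fold change -0.28). Its relative Scn8a was 6.04 and 6.36 CPM in mock and 4.94 and 5 CPM at 4 weeks and did not pass either (log2 fold change -0.32). Of 30 transmitter-gated receptor genes, 23 were tested, 5 rose and 5 fell, with a median log2 fold change of -0.54 (4 higher and 13 lower with a median of -1.56 when scaled to total reads). Gabra5, a GABA-A receptor subunit, rose from 0.465 and 1.27 to 46 and 48 CPM (log2 fold change 5.81 ± 0.35, adjusted p = 8.16e-07). Gria1, an AMPA receptor subunit, rose from 11.8 and 17.9 to 91 and 102 CPM (log2 fold change 2.71 ± 0.22, adjusted p = 4.87e-06). Gria2, a further subunit of that receptor, fell from 10.7 and 9.15 to 3.3 and 3.46 CPM (log2 fold change -1.55). Of 22 transmitter synthesis and transport genes, 11 were tested, 1 rose and 0 fell, with a median log2 fold change of 0.14 (0 higher and 6 lower with a median of -0.99 when scaled to total reads). Gad1, the GABA-synthesising enzyme, was the gene that rose, from 4.59 and 5.81 to 15.2 and 14.4 CPM (log2 fold change 1.51). Th, the first enzyme of dopamine synthesis, did not pass (0.0581 and 0.398 against 1.65 and 0.384 CPM). In 8 of these 22 genes both 4-week libraries had 0 reads. Gad1 did not pass scaled to total reads (0.45).

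Of 25 neuropeptide and granin genes, 18 were tested, 9 rose and 2 fell, with a median log2 fold change of 1.07 (8 higher and 6 lower with a median of 0.02 when scaled to total reads). Scg2, a granin of dense-core vesicles, rose from 0 and 0.0796 to 10.3 and 13.1 CPM (346-fold higher, interval 61 to 13787, adjusted p = 3.72e-06). Cartpt, a peptide precursor, rose from 0.0581 and 0.0796 to 6.96 and 3.65 CPM (79.6-fold higher, interval 21 to 673, adjusted p = 3.42e-05). The neuropeptide Y gene Npy rose from 2.5 and 1.59 to 11.7 and 12.3 CPM (log2 fold change 2.53 ± 0.29, adjusted p = 7.04e-05). Penk, the enkephalin precursor, was 0.93 and 0.557 CPM in mock and 5.31 and 7.3 CPM at 4 weeks and had been higher at 2 weeks, at 31.5 and 39.1 CPM. Scg3, a granin of high level, fell from 605 and 554 to 236 and 230 CPM (log2 fold change -1.31). Of 24 neurogenic transcription factor genes, 15 were tested, 1 rose and 9 fell, with a median log2 fold change of -1.76 (0 higher and 12 lower with a median of -2.94 when scaled to total reads). Sox11, a factor of young neurons, fell from 66 and 48.8 to 5.49 and 5.38 CPM (log2 fold change -3.40 ± 0.29, adjusted p = 7.49e-06). Dlx1, of the interneuron lineage, fell from 14.7 and 23.9 to 2.93 and 1.73 CPM (log2 fold change -3.03 ± 0.40, adjusted p = 0.000164). The related Sox4 fell from 63.9 and 33.7 to 19 and 13.1 CPM. Of 25 tubulin isotypes and microtubule protein genes, 22 were tested, 3 rose and 11 fell, with a median log2 fold change of -0.75 (3 higher and 19 lower with a median of -1.86 when scaled to total reads). Tubulin isotypes went both ways: Tubb2b, a beta tubulin of developing neurons and glia, fell from 1061 and 2413 to 43.8 and 51.1 CPM (log2 fold change -5.19 ± 0.44, adjusted p = 7.01e-06). Tubb6 fell from 11.8 and 9.23 to 0.366 and 0.769 CPM. Tuba4a rose from 12.5 and 19.8 to 254 and 251 CPM (log2 fold change 3.97 ± 0.30, adjusted p = 3.77e-06). Tubb4a, a beta tubulin of mature neurons and oligodendrocytes, rose from 17.5 and 47.4 to 112 and 141 CPM (log2 fold change 1.97). On the opposite strand, shared 3′ sequence was 70.9% for Sox4 and 100% for Tuba4a. Sox4 did not pass without 4-week library 2 (-1.36).

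**Figure D2:**
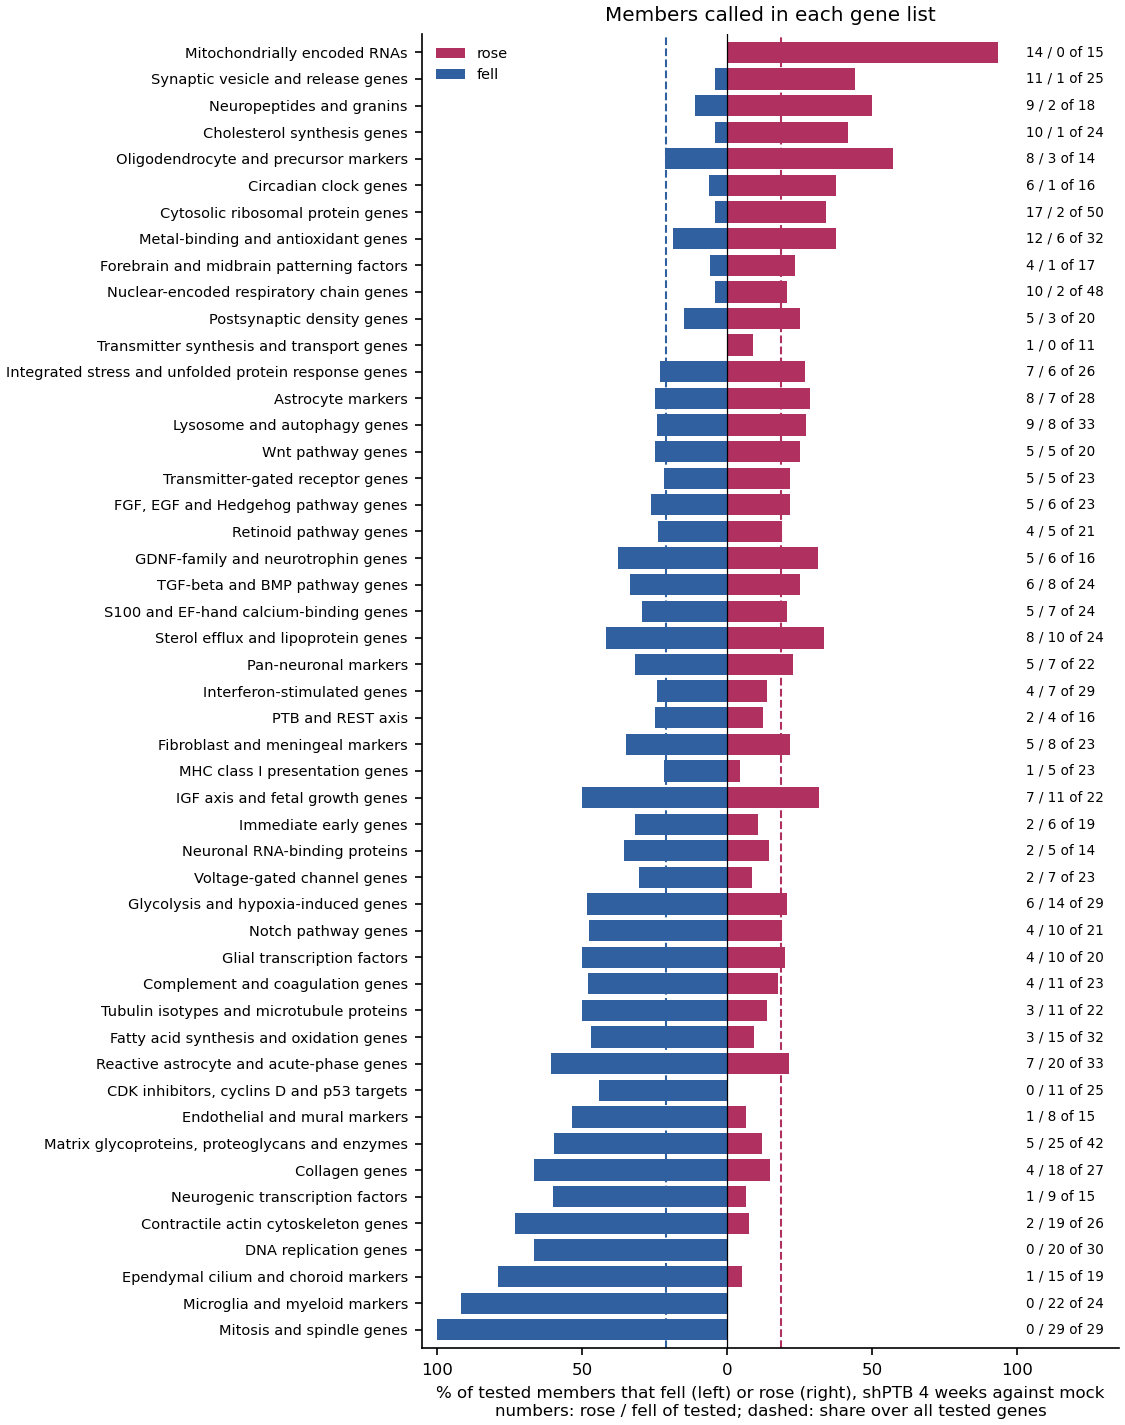
Share of each list's tested members that fell (left) or rose (right) in cortex at 4 weeks against mock, as percent, with the counts at the right; the dashed lines are the shares over all 14607 tested genes, 20.9 and 18.5%. The lists run from 29 of 29 mitosis genes lower to 14 of 15 mitochondrially encoded RNAs higher.

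Mitosis genes fell as a block, and other cell-cycle genes in part. Of 30 mitosis and spindle genes, 29 were tested, 0 rose and 29 fell, with a median log2 fold change of -4.23 (0 higher and 29 lower with a median of -5.27 when scaled to total reads; -3.91 with genes at 0 reads set to the bound that 3 reads allow). Mki67, the marker of dividing cells, fell from 38.2 and 33.3 to 0.366 and 0 CPM (193-fold lower, interval 53.2 to 1594, adjusted p = 4.01e-06). Ccna2, the cyclin of S and G2 phase, fell from 21.6 and 37.2 to 0.183 and 0.769 CPM (log2 fold change -5.93). Kif23, a kinesin of the midbody, had 0 reads at 4 weeks against 5.35 and 7.64 CPM (at least 22.4-fold lower, adjusted p = 2.65e-05). Of 30 DNA replication genes, all tested, 0 rose and 20 fell, with a median log2 fold change of -2.17 (0 higher and 28 lower with a median of -3.26 when scaled to total reads; -2.01 with genes at 0 reads set to the bound that 3 reads allow). The ligase gene Lig1 fell from 18.2 and 34 to 1.83 and 2.69 CPM (log2 fold change -3.52 ± 0.39, adjusted p = 5.22e-05). The nucleotide kinase gene Tk1 fell from 12.7 and 6.92 to 0.183 and 0 CPM (109-fold lower, interval 19.5 to 4328, adjusted p = 0.000161). Pcna, the sliding clamp, was 137 and 411 CPM in mock and 105 and 111 CPM at 4 weeks and did not pass (log2 fold change -1.34 ± 0.51, adjusted p = 0.0581). Of 26 CDK inhibitor, cyclin D and p53 target genes, 25 were tested, 0 rose and 11 fell, with a median log2 fold change of -0.58 (0 higher and 21 lower with a median of -1.71 when scaled to total reads). Ccnd1, the cyclin that starts the cycle, fell from 20.5 and 21 to 1.83 and 3.46 CPM (log2 fold change -2.97 ± 0.31, adjusted p = 3.59e-05). Cdkn1a, which codes for the inhibitor p21, fell from 180 and 205 to 58.8 and 61.3 CPM (log2 fold change -1.68). The senescence marker Cdkn2a did not pass at 0.349 and 1.83 against 1.83 and 1.15 CPM. Shared 3′ sequence was 21.9% for Mki67, so its level is uncertain. An opposite-strand gene held shared 3′ sequence (25.5% for Ccna2 and 100% for Ccnd1). Cdkn1a did not pass with an offset for transcript length (-0.87).

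Promoters of these genes were read from RefSeq (build GRCm38.p6) as the 250 bases before the start, for 25 of 30 mitosis genes. The CCAAT box (CCAAT, either strand), a site of the factor NF-Y, was present in 22 of them (88%) against 34.5% of 27025 promoters. The cell-cycle homology element CHR (TTTGAA or TTCGAA, either strand) was in 9 (36%) against 17.4%. An E2F site (TTTCCCGC, TTTGGCGC or TTTCGCGC, either strand) stood in 6 of 25 replication promoters (24%) against 1.59%. These shares are descriptions with no test. Promoters of 3 genes that fell are shown. Those of the mitotic cyclin Ccnb2 (chr9:70421555-70421804, minus strand) and kinase Cdk1 (chr10:69352913-69353162, minus strand) have letters that match the CCAAT box or CHR in capitals. The third is that of the replication helicase gene Mcm6 (chr1:128359706-128359955, minus strand), with E2F sites in capitals, where overlapping matches run together:
Ccnb2: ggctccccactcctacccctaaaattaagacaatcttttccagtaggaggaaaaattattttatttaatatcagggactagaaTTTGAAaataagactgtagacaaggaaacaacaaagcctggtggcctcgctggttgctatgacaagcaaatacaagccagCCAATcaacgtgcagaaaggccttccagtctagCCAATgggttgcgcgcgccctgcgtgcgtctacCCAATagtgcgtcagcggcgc
Cdk1: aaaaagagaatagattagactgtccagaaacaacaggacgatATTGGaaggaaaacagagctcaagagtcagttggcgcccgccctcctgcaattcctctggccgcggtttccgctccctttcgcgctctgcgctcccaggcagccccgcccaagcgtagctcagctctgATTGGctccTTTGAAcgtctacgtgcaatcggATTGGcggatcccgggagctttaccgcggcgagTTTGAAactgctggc
Mcm6: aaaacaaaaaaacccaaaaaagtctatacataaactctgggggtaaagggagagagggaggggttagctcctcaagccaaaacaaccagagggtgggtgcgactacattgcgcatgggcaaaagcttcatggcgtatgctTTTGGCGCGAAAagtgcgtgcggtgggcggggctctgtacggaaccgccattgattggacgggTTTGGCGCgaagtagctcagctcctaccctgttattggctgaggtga
These genes were chosen for their promoters after the values were seen. Ccnb2 fell from 6.33 and 12.2 to 0.366 and 0 CPM (46.9-fold lower, interval 12.9 to 389, adjusted p = 0.000448). Cdk1 fell from 5.4 and 7.96 to 0.183 and 0.384 CPM (23-fold lower, interval 7.77 to 113, adjusted p = 0.000161). Mcm6 fell from 9.3 and 5.57 to 1.65 and 1.92 CPM (log2 fold change -2.06).

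Matrix genes fell in most cases. Of 28 collagen genes, 27 were tested, 4 rose and 18 fell, with a median log2 fold change of -2.20 (2 higher and 22 lower with a median of -3.20 when scaled to total reads). Col1a1, the fibrillar collagen of connective tissue, fell from 306 and 413 to 9.71 and 11.7 CPM (log2 fold change -5.07 ± 0.28, adjusted p = 5.69e-07). Col12a1, a collagen bound to fibrils, fell from 5.98 and 4.53 to 0.183 and 0 CPM (57.3-fold lower, interval 10.1 to 2277, adjusted p = 4.79e-05). Its relative Col14a1 fell from 6.45 and 12.8 to 0.366 and 0.192 CPM (32.5-fold lower, interval 11 to 158, adjusted p = 0.000144). Against these, Col11a2, a minor fibrillar collagen of cartilage, rose from 15.3 and 16.7 to 216 and 223 CPM (log2 fold change 3.78 ± 0.26, adjusted p = 1.84e-06), with no overlap. Of 46 matrix glycoprotein, proteoglycan and enzyme genes, 42 were tested, 5 rose and 25 fell, with a median log2 fold change of -1.68 (1 higher and 35 lower with a median of -2.73 when scaled to total reads). Lama5, a basement membrane laminin, fell from 29.9 and 34.3 to 0.916 and 0.769 CPM (log2 fold change -5.23 ± 0.29, adjusted p = 5.22e-07). Bgn, the proteoglycan biglycan, fell from 30.6 and 17.1 to 0 and 0.576 CPM (88.6-fold lower, interval 30.2 to 430, adjusted p = 7.63e-05). The osteopontin gene Spp1 fell from 18.2 and 10.9 to 0 and 0.192 CPM (161-fold lower, interval 28.8 to 6378, adjusted p = 8.27e-05). Timp4, an inhibitor of matrix proteases, rose from 7.15 and 12.2 to 50.7 and 51.9 CPM (log2 fold change 2.42 ± 0.26, adjusted p = 3.94e-05).

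Of 30 contractile actin cytoskeleton genes, 26 were tested, 2 rose and 19 fell, with a median log2 fold change of -2.51 (1 higher and 25 lower with a median of -3.55 when scaled to total reads; -2.13 with genes at 0 reads set to the bound that 3 reads allow). Acta2, the smooth-muscle actin also made by astrocytes and fibroblasts in culture, fell from 330 and 262 to 4.03 and 3.46 CPM (log2 fold change -6.30 ± 0.27, adjusted p = 1.67e-07). Tagln, a calponin-like actin-binding protein, fell from 34.4 and 25.1 to 0.549 and 0 CPM (108-fold lower, interval 37 to 527, adjusted p = 3.39e-06). Its relative Tagln2 fell from 636 and 1779 to 71.8 and 68.6 CPM (log2 fold change -4.10 ± 0.48, adjusted p = 7.75e-05). Cnn2, a calponin, fell from 14 and 18 to 0.549 and 0.384 CPM (log2 fold change -5.05). Cnn1, the smooth-muscle calponin, went the other way, from 24 and 21.1 to 92.5 and 90.5 CPM (log2 fold change 2.02 ± 0.17, adjusted p = 6.49e-06). Of 28 TGF-beta and BMP pathway genes, 24 were tested, 6 rose and 8 fell, with a median log2 fold change of 0.07 (1 higher and 13 lower with a median of -0.97 when scaled to total reads). The ligand gene Tgfb1 fell from 24.8 and 14.3 to 1.1 and 1.15 CPM (log2 fold change -4.11 ± 0.46, adjusted p = 5.09e-05). The receptor gene Acvr1 fell from 5.64 and 6.76 to 1.28 and 0.384 CPM (log2 fold change -2.86). The pseudoreceptor Bambi rose from 4.13 and 5.01 to 32.2 and 40.4 CPM (log2 fold change 2.99 ± 0.23, adjusted p = 4.4e-06).

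A CArG box, the site of serum response factor, was found in 5 of 27 promoters of the contractile list (18.5%) against 1.4% of all promoters, again with no test. Shown with its CArG box in capitals is Myl9 (chr2:156775214-156775463, plus strand), the promoter of a myosin light chain gene of smooth muscle:
Myl9: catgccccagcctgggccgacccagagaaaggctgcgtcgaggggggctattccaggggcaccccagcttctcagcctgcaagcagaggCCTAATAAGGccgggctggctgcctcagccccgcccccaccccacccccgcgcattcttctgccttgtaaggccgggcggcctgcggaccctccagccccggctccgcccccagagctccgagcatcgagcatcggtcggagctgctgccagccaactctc
Myl9 fell from 260 and 424 to 43 and 34.8 CPM (log2 fold change -3.13 ± 0.29, adjusted p = 1.52e-05). The 4-week libraries lay below both mock libraries, and this gene too was chosen for its promoter.

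Markers of other cell types moved apart. Of 24 microglia and myeloid markers, all tested, 0 rose and 22 fell, with a median log2 fold change of -5.34 (0 higher and 22 lower with a median of -6.41 when scaled to total reads). Their summed level was 2688 and 3964 CPM in mock, 560.9 and 568.2 CPM at 2 weeks and 154 and 155.3 CPM at 4 weeks. Aif1, the microglial protein IBA1, fell from 10.5 and 12.6 to 0.183 and 0.192 CPM (60.7-fold lower, interval 16.7 to 503, adjusted p = 9.19e-06). C1qc, a complement component made by microglia, fell from 106 and 89.8 to 0.916 and 0.961 CPM (log2 fold change -6.69 ± 0.37, adjusted p = 5.22e-07). The leukocyte phosphatase gene Ptprc fell from 10.7 and 6.76 to 0.183 and 0 CPM (96.3-fold lower, interval 17.1 to 3819, adjusted p = 0.000218). P2ry12, a receptor of resting microglia, did not pass (2.44 and 4.69 against 10.3 and 5.38 CPM, log2 fold change 1.15). Of 23 ependymal cilium and choroid markers, 19 were tested, 1 rose and 15 fell, with a median log2 fold change of -3.95 (1 higher and 16 lower with a median of -5.06 when scaled to total reads; -3.53 with genes at 0 reads set to the bound that 3 reads allow). Their sum went from 714.9 and 646.7 CPM in mock to 194.3 and 200 CPM at 4 weeks. The regulator of motile cilia Foxj1 fell from 67.9 and 28.2 to 3.11 and 3.07 CPM (log2 fold change -3.95 ± 0.47, adjusted p = 8.25e-05). The axonemal dynein gene Dnah9 fell from 9.06 and 11.5 to 0 and 0.192 CPM (108-fold lower, interval 19.2 to 4271, adjusted p = 4.84e-05). Ttr, the transthyretin of choroid plexus, rose from 0.232 and 0.398 to 6.41 and 5.76 CPM (log2 fold change 4.27).

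Oligodendrocyte-lineage genes were higher as a sum under TMM scaling. Of 23 oligodendrocyte and precursor markers, 14 were tested, 8 rose and 3 fell, with a median log2 fold change of 0.79 (5 higher and 4 lower with a median of -0.30 when scaled to total reads). Their sum was 178.5 and 202.6 CPM in mock, 504.5 and 535.2 CPM at 2 weeks and 531.7 and 515.2 CPM at 4 weeks. Mbp, a myelin protein, rose from 1.28 and 1.59 to 37.4 and 35.6 CPM (log2 fold change 4.67 ± 0.23, adjusted p = 3.17e-07). Mag, an adhesion protein of myelin, rose from 0.581 and 0.318 to 20.7 and 18.1 CPM (log2 fold change 5.34 ± 0.51, adjusted p = 1.96e-05). Bcas1, expressed in newly myelinating cells, rose from 0.523 and 1.43 to 48 and 49.4 CPM (log2 fold change 5.69 ± 0.43, adjusted p = 3.37e-06). Olig2, the lineage factor, fell from 12.5 and 15.9 to 5.68 and 6.73 CPM (log2 fold change -1.19). Pdgfra, the receptor of precursors, was near the floor in all 4 libraries (0.581 and 0.796 against 0.549 and 0.769 CPM) and did not pass. Of the defining myelin genes, Opalin had 0 reads in all 4 libraries and Mog 0 reads in both mock libraries. Of 22 endothelial and mural markers, 15 were tested, 1 rose and 8 fell, with a median log2 fold change of -2.12 (0 higher and 10 lower with a median of -3.02 when scaled to total reads). They summed to 82.44 and 78.69 CPM in mock and 41.94 and 45.16 CPM at 4 weeks. Cldn5, the tight-junction gene of brain endothelium, had 0 reads in all 4 libraries. Pecam1, an adhesion gene of endothelium, fell from 1.39 and 1.51 to 0.183 and 0.384 CPM (5.13-fold lower, interval 1.64 to 25.9, adjusted p = 0.0148). Of 24 fibroblast and meningeal markers, 23 were tested, 5 rose and 8 fell, with a median log2 fold change of -1.43 (3 higher and 13 lower with a median of -2.53 when scaled to total reads; -1.12 with genes at 0 reads set to the bound that 3 reads allow). The sum of these went from 1463 and 1950 CPM in mock to 4950 and 4936 CPM at 4 weeks, but without Thy1 it was 819.5 and 1086 CPM in mock and 188.1 and 187.4 CPM at 4 weeks. Ogn, a proteoglycan of meningeal fibroblasts, fell from 48.9 and 34.8 to 1.1 and 1.15 CPM (log2 fold change -5.20 ± 0.35, adjusted p = 1.41e-06). S100a4 fell from 269 and 392 to 10.6 and 10.2 CPM (log2 fold change -4.99 ± 0.27, adjusted p = 5.22e-07). Dcn, the fibroblast proteoglycan decorin, rose from 15.7 and 12.6 to 28.8 and 27.3 CPM (log2 fold change 0.98), a direction that turned when scaled to total reads (-0.13). Lum did not pass (0.813 and 0.239 against 0 and 0.192 CPM). Because shared 3′ sequence was 58.1% for S100a4, its level is uncertain. Olig2 did not pass without 4-week library 1 (-1.08). Pecam1 did not pass without 4-week library 1 (-1.89) or in DESeq2 (-2.38). Whether these cell types have a part in the results on other gene groups was not tested.

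**Figure D3:**
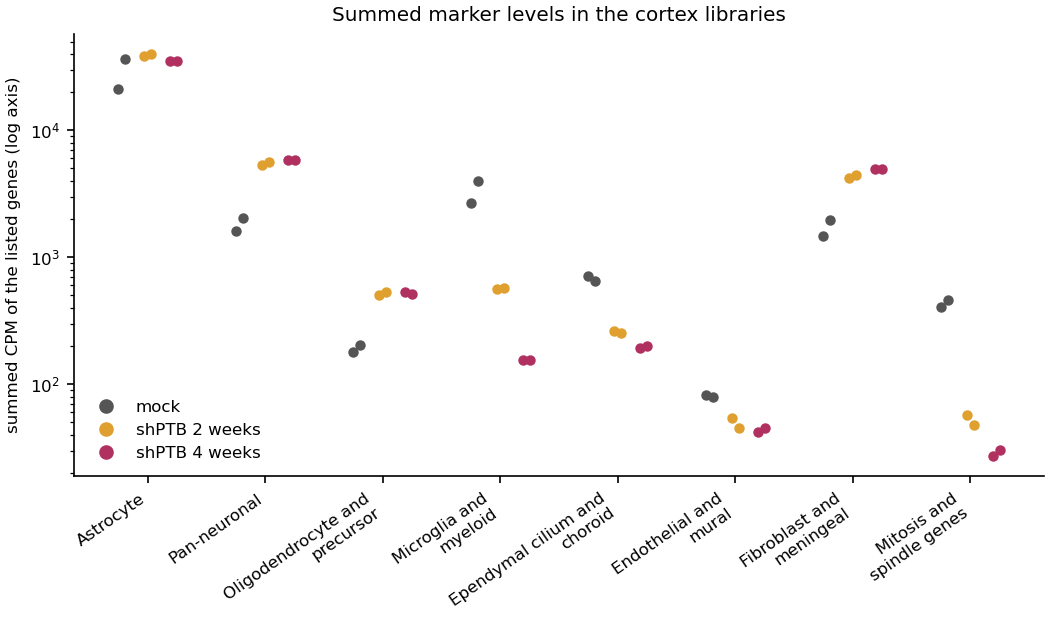
Summed CPM (vertical log axis) of the marker lists in each of the 6 cortex libraries, 2 mock, 2 at 2 weeks and 2 at 4 weeks, each point a library. The microglia sum goes from 2688 and 3964 CPM in mock to 154 and 155.3 CPM at 4 weeks, and the oligodendrocyte sum lies above mock in all 4 shPTB libraries; the neuronal and fibroblast sums both include Thy1.

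Notch and Wnt pathway genes moved both ways. Of 24 Notch pathway genes, 21 were tested, 4 rose and 10 fell, with a median log2 fold change of -1.09 (0 higher and 16 lower with a median of -2.20 when scaled to total reads). The ligand gene Dll3 fell from 21.1 and 50 to 0.549 and 1.35 CPM (log2 fold change -5.22 ± 0.58, adjusted p = 5.33e-05). The non-canonical ligand Dlk1 fell from 15.3 and 23 to 1.28 and 0.769 CPM (log2 fold change -4.20 ± 0.42, adjusted p = 2.65e-05). Of the receptors, Notch3 fell from 12 and 28.4 to 4.4 and 4.8 CPM. Notch2 rose from 10.6 and 10.4 to 22 and 30.2 CPM. Rbpj, the DNA-binding mediator, fell from 12.7 and 11 to 2.2 and 2.31 CPM. Of 33 Wnt pathway genes, 20 were tested, 5 rose and 5 fell, with a median log2 fold change of -0.11 (4 higher and 11 lower with a median of -1.18 when scaled to total reads). The ligand gene Wnt5a fell from 25.8 and 23.8 to 2.93 and 4.61 CPM (log2 fold change -2.72 ± 0.26, adjusted p = 1.82e-05). The inhibitor Nkd1, itself a target of the pathway, rose from 2.79 and 3.5 to 37 and 43.8 CPM (log2 fold change 3.69 ± 0.21, adjusted p = 6.46e-07). The receptor gene Fzd5 rose from 0.93 and 0.318 to 4.94 and 5.76 CPM, and Axin2, a common target, did not pass (1.45 and 0.796 against 0 and 0.384 CPM). Notch2 did not pass scaled to total reads (0.22).

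Of 29 FGF, EGF and Hedgehog pathway genes, 23 were tested, 5 rose and 6 fell, with a median log2 fold change of 0.12 (3 higher and 9 lower with a median of -0.96 when scaled to total reads; 0.42 with genes at 0 reads set to the bound that 3 reads allow). Hhip, which binds and blocks Hedgehog ligands, rose from 0.232 and 0.716 to 45.6 and 49.8 CPM (log2 fold change 6.71 ± 0.33, adjusted p = 3.17e-07). The growth factor gene Fgf1 rose from 15.2 and 13 to 74.5 and 66.5 CPM (log2 fold change 2.32). The receptor gene Fgfr2 rose from 19.1 and 22.8 to 170 and 176 CPM (log2 fold change 3.04 ± 0.19, adjusted p = 8.84e-07). Etv1, an ETS factor downstream of FGF, fell from 12.5 and 11 to 4.21 and 5.57 CPM (log2 fold change -1.26). Of 22 GDNF-family and neurotrophin genes, 16 were tested, 5 rose and 6 fell, with a median log2 fold change of -0.13 (4 higher and 9 lower with a median of -1.25 when scaled to total reads). The receptor pair Ret and Gfra2 rose, Ret from 0.116 and 0.318 to 24.4 and 28.2 CPM (log2 fold change 6.93 ± 0.40, adjusted p = 6.85e-07). Its co-receptor Gfra2 rose from 3.37 and 3.5 to 103 and 109 CPM (log2 fold change 4.95 ± 0.22, adjusted p = 2.42e-07). Nrtn, the ligand of that pair, fell from 11.4 and 8.91 to 1.65 and 2.88 CPM (log2 fold change -2.17). The other co-receptor gene Gfra1 fell from 46.1 and 48.1 to 26.7 and 27.1 CPM (log2 fold change -0.81). Cntf, a cytokine of astrocytes, fell from 38.6 and 117 to 1.28 and 0.769 CPM (log2 fold change -6.22 ± 0.82, adjusted p = 0.000172). Its receptor gene Cntfr rose from 15.2 and 24.4 to 145 and 122 CPM (log2 fold change 2.76 ± 0.25, adjusted p = 1.14e-05). Ntrk3, the neurotrophin-3 receptor, rose from 6.51 and 11.8 to 50.7 and 53.2 CPM (log2 fold change 2.52). The level is uncertain where 3′ sequence was shared, at 100% for Cntf. On the opposite strand, shared 3′ sequence was 82.8% for Gfra1. Nrtn did not pass with an offset for transcript length (-1.01).

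Of 24 IGF axis and fetal growth genes, 22 were tested, 7 rose and 11 fell, with a median log2 fold change of -0.26 (0 higher and 12 lower with a median of -1.36 when scaled to total reads). Igf2, a fetal growth factor, fell from 70.1 and 108 to 0.366 and 1.15 CPM (log2 fold change -6.86 ± 0.44, adjusted p = 1.07e-06). Its imprinted neighbour H19, a non-coding RNA, fell from 369 and 642 to 11.9 and 15.2 CPM (log2 fold change -5.22 ± 0.34, adjusted p = 1.24e-06). Igf1 fell from 16 and 20.4 to 1.65 and 1.92 CPM (log2 fold change -3.34). The binding protein gene Igfbp7 fell from 72.3 and 151 to 3.48 and 4.23 CPM (log2 fold change -4.85). Irs2, an adaptor of the insulin receptor, rose from 46 and 37.8 to 116 and 119 CPM (log2 fold change 1.49). Of 27 retinoid pathway genes, 21 were tested, 4 rose and 5 fell, with a median log2 fold change of 0.53 (2 higher and 8 lower with a median of -0.54 when scaled to total reads). Aldh1a1, a retinaldehyde dehydrogenase, rose from 37.4 and 53.1 to 1151 and 1087 CPM (log2 fold change 4.63 ± 0.28, adjusted p = 8.73e-07). Its close paralogue Aldh1a7 rose from 4.42 and 8.67 to 965 and 987 CPM (log2 fold change 7.23 ± 0.47, adjusted p = 1.21e-06). The retinoid-binding protein gene Crabp1 fell from 111 and 226 to 12.3 and 12.7 CPM (log2 fold change -3.75 ± 0.34, adjusted p = 1.34e-05). Shared 3′ sequence was 100% for Igf2, so its level is uncertain. Irs2 did not pass scaled to total reads (0.38).

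Immune and reactive genes gave mixed results. Of 38 reactive astrocyte and acute-phase genes, 33 were tested, 7 rose and 20 fell, with a median log2 fold change of -1.87 (5 higher and 25 lower with a median of -2.98 when scaled to total reads). Lcn2, a secreted protein of reactive astrocytes, rose from 37.4 and 39 to 789 and 750 CPM (log2 fold change 4.33 ± 0.23, adjusted p = 5.17e-07), after 4591 and 4884 CPM at 2 weeks. Vim, the intermediate filament of immature and reactive astrocytes, fell from 2946 and 3744 to 652 and 685 CPM (log2 fold change -2.32). Nes, that of neural progenitors, fell from 60.4 and 49.4 to 3.3 and 2.5 CPM (log2 fold change -4.24 ± 0.26, adjusted p = 8.84e-07). The hyaluronan receptor gene Cd44 fell from 170 and 242 to 16.8 and 13.5 CPM (log2 fold change -3.77 ± 0.26, adjusted p = 1.6e-06). The galectin gene Lgals1 fell from 81.1 and 30.2 to 1.83 and 1.15 CPM (log2 fold change -5.21). Of 26 complement and coagulation genes, 23 were tested, 4 rose and 11 fell, with a median log2 fold change of -1.36 (2 higher and 15 lower with a median of -2.50 when scaled to total reads). C3, the central complement component, rose from 268 and 404 to 1204 and 1236 CPM (log2 fold change 1.86 ± 0.25, adjusted p = 0.000209). C4b fell from 62.3 and 40.1 to 15.6 and 14 CPM (log2 fold change -1.79). The inhibitor Serping1 fell from 69.3 and 61.9 to 2.93 and 2.88 CPM (log2 fold change -4.49 ± 0.22, adjusted p = 2.94e-07). Because shared 3′ sequence was 57.7% for C4b, its level is uncertain.

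Of 34 interferon-stimulated genes, 29 were tested, 4 rose and 7 fell, with a median log2 fold change of -0.45 (3 higher and 18 lower with a median of -1.49 when scaled to total reads). Ifit1, an antiviral RNA-binding protein, rose from 3.25 and 3.82 to 13 and 11.1 CPM (log2 fold change 1.77 ± 0.21, adjusted p = 6.85e-05). Its relative Ifit3 rose from 8.08 and 12.9 to 39.4 and 46.3 CPM (log2 fold change 2.04 ± 0.24, adjusted p = 6.8e-05). Bst2, the tetherin gene, fell from 9.3 and 9.79 to 0.733 and 0.576 CPM (log2 fold change -3.84 ± 0.31, adjusted p = 4.87e-06). Cmpk2 fell from 8.83 and 7.96 to 0.366 and 1.15 CPM. Of 24 MHC class I presentation genes, 23 were tested, 1 rose and 5 fell, with a median log2 fold change of -0.48 (0 higher and 16 lower with a median of -1.52 when scaled to total reads). The 5 falls were in 3 chaperone genes of the endoplasmic reticulum (Calr, Canx and Pdia3), in the peptide transporter gene Tap1, named to complete the 5, and in Fcgrt. Fcgrt, the neonatal Fc receptor gene, fell from 44.3 and 35.6 to 9.89 and 13.1 CPM (log2 fold change -1.80). Of 25 immediate early genes, 19 were tested, 2 rose and 6 fell, with a median log2 fold change of -0.78 (1 higher and 12 lower with a median of -1.79 when scaled to total reads). Fos and Jun code for parts of the AP-1 factor. Fos fell from 22.7 and 36.4 to 5.31 and 4.04 CPM (log2 fold change -2.65 ± 0.29, adjusted p = 4.96e-05). Jun fell from 44.9 and 33.5 to 12.5 and 15.2 CPM (log2 fold change -1.50). The level is uncertain where 3′ sequence was shared, at 24% for Ifit3. Calr did not pass without 4-week library 2 (-0.84).

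An interferon-stimulated response element was matched in 14 of 24 promoters of that list (58.3%) and in 3.04% of all promoters, a description with no test. The element was also matched in the promoter of Bst2, which fell, and of 29 tested members 4 rose and 7 fell. The matches are in capitals in Ifit1 (chr19:34640639-34640888, plus strand), shown because this gene rose:
Ifit1: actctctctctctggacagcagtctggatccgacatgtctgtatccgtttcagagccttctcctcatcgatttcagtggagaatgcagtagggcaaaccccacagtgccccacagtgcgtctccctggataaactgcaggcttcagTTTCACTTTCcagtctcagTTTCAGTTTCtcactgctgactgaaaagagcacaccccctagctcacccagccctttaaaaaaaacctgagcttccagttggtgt

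Of 27 integrated stress and unfolded protein response genes, 26 were tested, 7 rose and 6 fell, with a median log2 fold change of 0.13 (1 higher and 14 lower with a median of -0.94 when scaled to total reads). Slc7a11, the cystine-glutamate exchanger, rose from 0.407 and 0.796 to 38.5 and 40.4 CPM (log2 fold change 6.06 ± 0.28, adjusted p = 2.57e-07). Ddit3, a stress-induced transcription factor, rose from 7.9 and 6.21 to 27.8 and 26.3 CPM (log2 fold change 1.93). The chaperone-like isomerase gene Pdia4 fell from 19.6 and 20.1 to 5.31 and 5.38 CPM (log2 fold change -1.89 ± 0.25, adjusted p = 0.000182). Hspa5, the main chaperone of the endoplasmic reticulum, fell from 61.5 and 30.2 to 11.9 and 11.5 CPM, a direction that turned with an offset for transcript length (log2 fold change -1.97 against 0.59). Of 33 metal-binding and antioxidant genes, 32 were tested, 12 rose and 6 fell, with a median log2 fold change of 0.40 (6 higher and 14 lower with a median of -0.69 when scaled to total reads). Sod3, the extracellular superoxide dismutase, rose from 6.57 and 6.36 to 50.2 and 45.9 CPM (log2 fold change 2.89 ± 0.17, adjusted p = 7.15e-07). Hmox1, the haem oxygenase, rose from 15 and 29 to 95.6 and 96.9 CPM (log2 fold change 2.13 ± 0.31, adjusted p = 0.000337). The glutathione transferase gene Gstm5 rose from 46.9 and 31 to 178 and 163 CPM (log2 fold change 2.13 ± 0.24, adjusted p = 5.34e-05). The sulfiredoxin gene Srxn1 rose from 15.6 and 18.1 to 65.2 and 59.2 CPM (log2 fold change 1.88). The peroxidase gene Gpx8 fell from 52.9 and 48 to 11.7 and 9.03 CPM (log2 fold change -2.28). Ddit3 did not pass scaled to total reads (0.82) or with an offset for transcript length (0.22).

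Of 25 cholesterol synthesis genes, 24 were tested, 10 rose and 1 fell, with a median log2 fold change of 0.37 (4 higher and 14 lower with a median of -0.69 when scaled to total reads). Insig1, the sterol-sensing brake on the pathway, rose from 43.5 and 73.3 to 296 and 303 CPM (log2 fold change 2.36 ± 0.27, adjusted p = 5.72e-05). The desaturase gene Sc5d rose from 32.8 and 52.7 to 136 and 135 CPM (log2 fold change 1.66 ± 0.24, adjusted p = 0.000286). Of 25 sterol efflux and lipoprotein genes, 24 were tested, 8 rose and 10 fell, with a median log2 fold change of -0.51 (3 higher and 13 lower with a median of -1.62 when scaled to total reads). Apoe, the main lipoprotein of astrocytes, was 11056 and 8063 CPM in mock and 16414 and 16001 CPM at 4 weeks, a rise of 0.76 on the log2 scale that turned when scaled to total reads (-0.37). Apod, a lipocalin that carries lipids, rose from 19.7 and 15.8 to 126 and 117 CPM (log2 fold change 2.78 ± 0.19, adjusted p = 1.84e-06). The lysosomal sterol carrier Npc2 rose from 288 and 409 to 1210 and 1188 CPM (log2 fold change 1.78). The phospholipid transfer protein gene Pltp fell from 100 and 74 to 8.06 and 8.26 CPM (log2 fold change -3.41 ± 0.22, adjusted p = 1e-06). Cyp46a1, which hydroxylates brain cholesterol, fell from 110 and 163 to 39.9 and 38.2 CPM (log2 fold change -1.80). Of 34 fatty acid synthesis and oxidation genes, 32 were tested, 3 rose and 15 fell, with a median log2 fold change of -0.74 (0 higher and 26 lower with a median of -1.79 when scaled to total reads). The regulator Srebf1 fell from 35.2 and 30.9 to 9.52 and 9.22 CPM. The oxidation enzyme gene Acaa2 fell from 22.6 and 23.8 to 6.96 and 6.34 CPM. The fatty acid carrier Fabp5 fell from 292 and 154 to 42.7 and 50.7 CPM. Shared 3′ sequence was 22.8% for Fabp5, so its level is uncertain. An opposite-strand gene held shared 3′ sequence (81.1% for Pltp). Apoe did not pass fitted on the compared groups alone (0.71), without cortex mock library 2 (0.55), without 4-week library 1 (0.74) or without 4-week library 2 (0.78).

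Of 15 mitochondrially encoded RNAs, all tested, 14 rose and 0 fell, with a median log2 fold change of 2.31 (12 higher and 1 lower with a median of 1.30 when scaled to total reads). mt-Nd4l, a complex I subunit, rose from 84.6 and 214 to 5223 and 5097 CPM (log2 fold change 5.11 ± 0.49, adjusted p = 1.86e-05). mt-Nd1 rose from 5098 and 10937 to 45077 and 45612 CPM (log2 fold change 2.50 ± 0.40, adjusted p = 0.000645). The terminal oxidase gene mt-Co1 rose from 1645 and 2349 to 5840 and 5683 CPM (log2 fold change 1.53). Of 48 nuclear-encoded respiratory chain genes, all tested, 10 rose and 2 fell, with a median log2 fold change of -0.03 (1 higher and 33 lower with a median of -1.12 when scaled to total reads). Cox6a1, of the terminal oxidase, rose from 361 and 496 to 1272 and 1330 CPM (log2 fold change 1.60 ± 0.20, adjusted p = 0.000129). Of 50 cytosolic ribosomal protein genes, all tested, 17 rose and 2 fell, with a median log2 fold change of 0.38 (2 higher and 22 lower with a median of -0.70 when scaled to total reads). Of 30 glycolysis and hypoxia-induced genes, 29 were tested, 6 rose and 14 fell, with a median log2 fold change of -0.75 (3 higher and 22 lower with a median of -1.88 when scaled to total reads). The glucose transporter gene Slc2a1 rose from 13.2 and 28.8 to 90.1 and 93.6 CPM (log2 fold change 2.13 ± 0.37, adjusted p = 0.000954). The lactate dehydrogenase subunit Ldhb rose from 1220 and 1683 to 5174 and 4869 CPM (log2 fold change 1.79). The lactate transporter gene Slc16a1 fell from 19.2 and 8.04 to 2.2 and 2.69 CPM (log2 fold change -2.48). The hypoxia-induced carbonic anhydrase gene Car9 fell from 5.35 and 6.29 to 0.549 and 0 CPM (20.4-fold lower, interval 6.87 to 99.9, adjusted p = 0.000161). Ndrg1, also induced by hypoxia, fell from 61.8 and 29 to 5.31 and 5 CPM (log2 fold change -3.14). Because shared 3′ sequence was 98.9% for mt-Nd4l, 95.5% for mt-Co1, 22.6% for Cox6a1 and 35.5% for Ldhb, their levels are uncertain. Ldhb did not pass with an offset for transcript length (0.66).

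Of 34 lysosome and autophagy genes, 33 were tested, 9 rose and 8 fell, with a median log2 fold change of -0.07 (4 higher and 21 lower with a median of -1.14 when scaled to total reads). Cst3, the protease inhibitor cystatin C, fell from 427 and 530 to 50.5 and 44.4 CPM (log2 fold change -3.33 ± 0.20, adjusted p = 7.52e-07). Ctsh, a cathepsin, fell from 37.9 and 24.4 to 2.2 and 1.92 CPM (log2 fold change -3.91). Atp6v0d1, a proton pump subunit, rose from 47.4 and 105 to 331 and 327 CPM (log2 fold change 2.11 ± 0.32, adjusted p = 0.000469). Of 19 circadian clock genes, 16 were tested, 6 rose and 1 fell, with a median log2 fold change of 0.40 (3 higher and 7 lower with a median of -0.69 when scaled to total reads). Nr1d1, the repressor REV-ERB alpha, rose from 271 and 647 to 2279 and 2282 CPM (log2 fold change 2.31 ± 0.35, adjusted p = 0.00045). Rorb, a nuclear receptor of the same DNA sites, rose from 25.2 and 21 to 161 and 168 CPM (log2 fold change 2.83 ± 0.17, adjusted p = 8.84e-07). The core factor Clock (11.9 and 12.2 against 7.51 and 8.84 CPM) did not pass. Of 32 forebrain and midbrain patterning factor genes, 17 were tested, 4 rose and 1 fell, with a median log2 fold change of 0.58 (3 higher and 5 lower with a median of -0.48 when scaled to total reads). Otx1 rose from 14.4 and 31.7 to 106 and 105 CPM (log2 fold change 2.20 ± 0.30, adjusted p = 0.000224). Fezf2, a factor of deep-layer cortical neurons, rose from 2.15 and 2.55 to 13.4 and 11.1 CPM (log2 fold change 2.38 ± 0.34, adjusted p = 0.000265). Of 26 S100 and EF-hand calcium-binding genes, 24 were tested, 5 rose and 7 fell, with a median log2 fold change of -0.04 (1 higher and 14 lower with a median of -1.08 when scaled to total reads). Calb2, the calretinin of some interneurons, rose from 1.68 and 3.58 to 20.9 and 21.5 CPM (log2 fold change 3.04 ± 0.29, adjusted p = 1.79e-05). Ncs1, a neuronal calcium sensor, fell from 9.24 and 5.01 to 0.549 and 0.576 CPM (log2 fold change -3.64 ± 0.74, adjusted p = 0.00277). On the opposite strand, shared 3′ sequence was 50.9% for Nr1d1.

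Beyond the lists, the largest rises over all protein-coding genes were led by Gm14434, a gene with no reads in either mock library and 33.9 and 36.7 CPM at 4 weeks (at least 350-fold higher, adjusted p = 6.59e-06). Klk6, a secreted serine protease of the central nervous system, rose from 0 and 0.0796 to 34.2 and 34.6 CPM (1025-fold higher, interval 183 to 40591, adjusted p = 1.7e-06). Mafa, a basic leucine zipper factor best known from pancreatic beta cells, rose from 0.232 and 0.0796 to 42.9 and 51.9 CPM (log2 fold change 8.05 ± 0.40, adjusted p = 3.17e-07). Prima1, the membrane anchor of acetylcholinesterase, rose from 0.0581 and 0.239 to 30.6 and 32.1 CPM (log2 fold change 7.72 ± 0.40, adjusted p = 3.99e-07). Stc1, Dio2 and Rlbp1 reached higher levels than these. The stanniocalcin gene Stc1 rose from 3.43 and 4.53 to 547 and 589 CPM (log2 fold change 7.16 ± 0.24, adjusted p = 9.71e-08). The deiodinase gene Dio2, which activates thyroid hormone in astrocytes, rose from 1.63 and 1.35 to 171 and 168 CPM (log2 fold change 6.81 ± 0.26, adjusted p = 1.27e-07). Rlbp1, a retinaldehyde-binding protein of retinal glia, rose from 6.39 and 13.6 to 1031 and 1075 CPM (log2 fold change 6.73 ± 0.40, adjusted p = 7.02e-07). Rpl5, a ribosomal protein gene, was listed at 2.96 and 0.239 CPM in mock and 165 and 161 CPM at 4 weeks (log2 fold change 6.57 ± 0.73, adjusted p = 5e-05). The next largest change among the 50 ribosomal protein genes was in Rps18, at 1.68. Shared 3′ sequence was 100% for Gm14434 and 74.5% for Rps18, so their levels are uncertain. An opposite-strand gene held shared 3′ sequence (100% for Rpl5).

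Among the largest falls, the ADP receptor gene P2ry13 of microglia fell from 11.2 and 18.2 CPM to 0 reads (at least 50.4-fold lower, adjusted p = 3.93e-05). Fcrls fell from 120 and 152 to 1.47 and 0.961 CPM (log2 fold change -6.79 ± 0.34, adjusted p = 3.17e-07). The Toll-like receptor homologue Cd180 fell from 24.1 and 47.7 to 0.366 and 0.192 CPM (121-fold lower, interval 41.3 to 587, adjusted p = 1.42e-05). Apoc2, an apolipoprotein, fell from 14.6 and 12.7 CPM to 0 reads (at least 49.1-fold lower, adjusted p = 0.00201). Cbr2, a carbonyl reductase, fell from 38.6 and 37.2 to 0 and 0.192 CPM (406-fold lower, interval 72.7 to 16038, adjusted p = 6.85e-07). Mgp, the matrix Gla protein, fell from 18 and 57.4 to 0 and 0.192 CPM (370-fold lower, interval 66.2 to 14610, adjusted p = 5.33e-05). The peroxisomal oxidase gene Pipox fell from 13.1 and 12.3 to 0 and 0.192 CPM (136-fold lower, interval 24.3 to 5388, adjusted p = 4.87e-06). In none of these genes did a 4-week library reach a mock library, which the rule for naming them required. Because shared 3′ sequence was 98.9% for Apoc2 and 42.1% for Cbr2, their levels are uncertain.

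**Figure D4:**
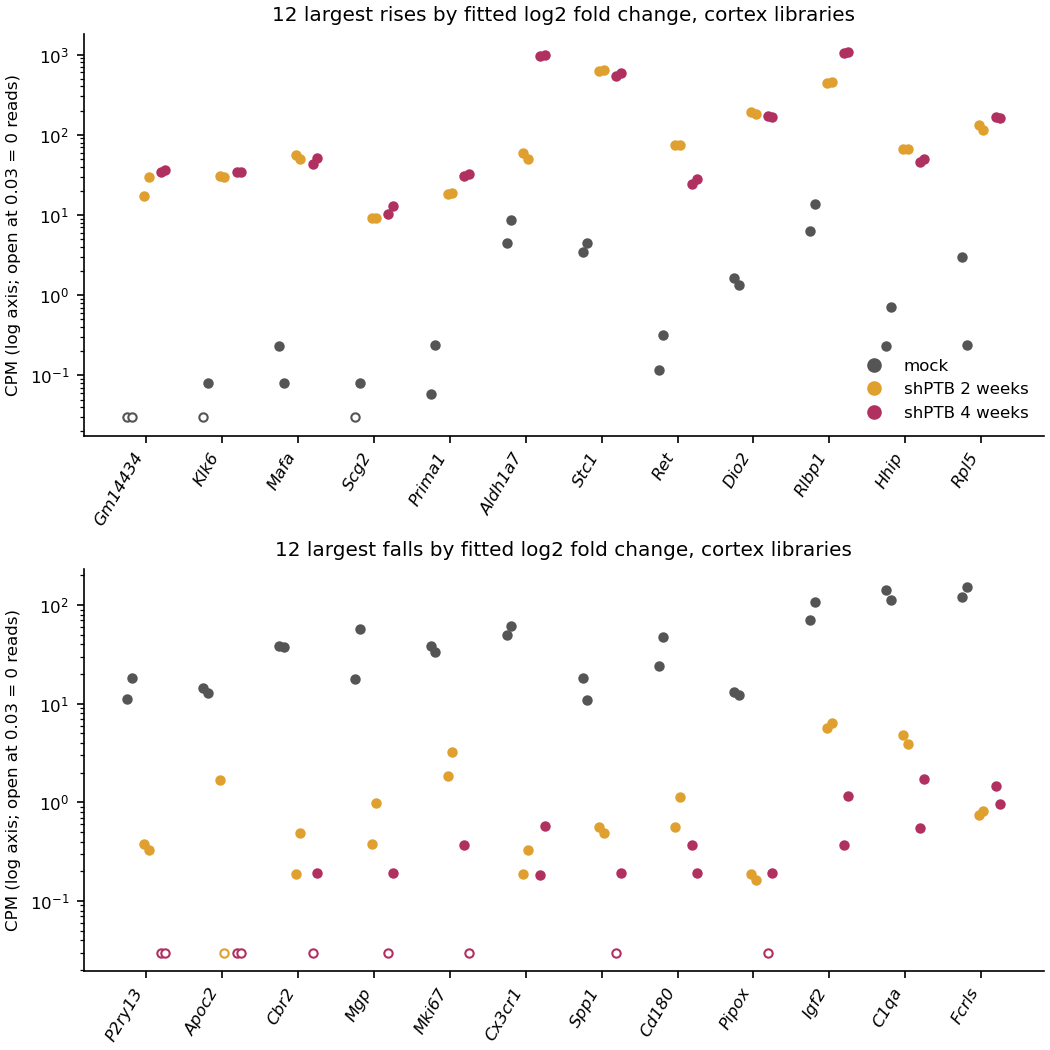
CPM on a log axis in each of the 6 cortex libraries (2 mock, 2 at 2 weeks, 2 at 4 weeks; open points at 0.03 had 0 reads) for the 12 protein-coding genes with the largest fitted rises and the 12 with the largest fitted falls at 4 weeks among those with at least 10 CPM in the higher group. For all 24 the 2-week libraries lie on the same side of the mock libraries as the 4-week libraries.

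Against cortex at 2 weeks, 80 genes were higher at 4 weeks (0.548% of those tested) and 325 were lower (2.22%). The spread in this test was estimated over all 6 groups, mock pairs included. Fitted on the cortex 2-week and 4-week libraries alone, 1234 genes were called higher and 1374 lower, so the counts depend on that choice. Interferon-stimulated genes made up 12 of the 325, out of 29 tested, and 8 of 22 IGF axis and fetal growth genes were among them. The next highest shares were in microglia markers (7 of 24), complement genes (6 of 23), collagens (7 of 27), reactive genes (8 of 33), pan-neuronal markers (5 of 22) and oligodendrocyte markers (3 of 14). Lcn2, chosen with Ret and Penk after the values were seen, stood at 4591 and 4884 CPM at 2 weeks and 789 and 750 CPM at 4 weeks (log2 fold change -2.62 ± 0.21, adjusted p = 0.000277). Among genes that also passed against mock, the 5 largest later falls were in Tgtp2, Reg3g, Slc15a3, Lrg1 and Oas1g. Tgtp2, an interferon-induced GTPase, went from 9.36 and 11.2 CPM at 2 weeks to 0 reads (adjusted p = 0.000307) and had 0.523 and 0.716 CPM in mock. Reg3g, a secreted lectin, went from 30.9 and 27.8 to 0.916 and 0.192 CPM (log2 difference -5.67) against 6.45 and 10.9 CPM in mock. The transporter gene Slc15a3 went from 19.3 and 21.4 to 1.83 and 0.576 CPM (-4.05) against 17.3 and 16.5 CPM in mock. Lrg1, an acute-phase glycoprotein, went from 14.6 and 15.9 to 0.549 and 1.35 CPM (-4.00) against 3.2 and 6.36 CPM in mock, and the antiviral gene Oas1g from 19.1 and 22.6 to 0.733 and 1.92 CPM (-3.97) against 8.02 and 13.7 CPM in mock. In all 5 the 4-week libraries lay below the mock libraries as well as below those at 2 weeks. For Tgtp2, however, 0 reads allow up to 0.549 and 0.576 CPM at 4 weeks, which is above the lower mock library. The largest later rise was in Aldh1a7, from 59.9 and 50.5 to 965 and 987 CPM (log2 fold change 4.15 ± 0.40, adjusted p = 0.000479). The collagen gene Col22a1 followed from 10.3 and 11.8 to 56.8 and 63.2 CPM (2.43). Next came Ppp1r1b, the phosphatase inhibitor DARPP-32, from 26.2 and 26.8 to 113 and 129 CPM (2.19), and the non-coding genes Gm20658 (2.15) and Gm5083 (2.04). The receptor gene Ret, higher than in mock, had been higher still at 2 weeks, at 73.6 and 74.2 CPM (log2 difference -1.49), and so had Penk, at 31.5 and 39.1 CPM (-2.48). Levels are uncertain where 3′ sequence was shared, at 100% for Tgtp2 and 45.1% for Oas1g. On the opposite strand, shared 3′ sequence was 100% for Slc15a3. Col22a1 did not pass with an offset for transcript length (2.01). Gm20658 did not pass without 2-week library 1 (2.46), without 2-week library 2 (1.88), without 4-week library 1 (2.01) or without 4-week library 2 (2.28). Gm5083 and Ret did not pass with an offset for transcript length (1.88 and -1.53), without 2-week library 1 (2.07 and -1.49), without 2-week library 2 (2.02 and -1.48), without 4-week library 1 (1.87 and -1.39) or without 4-week library 2 (2.20 and -1.60). Lrg1 did not pass without 4-week library 1 (-3.49).

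The change at 4 weeks was set against the same change in midbrain astrocytes. It was more positive in cortex for 94 genes (0.644%) and more negative for 278 (1.9%) at an adjusted p under 0.05. The oligodendrocyte gene Mbp went from 1.28 and 1.59 to 37.4 and 35.6 CPM in cortex and from 3.31 and 3.92 to 3.73 and 4.29 CPM in midbrain (difference of log2 fold changes 4.52 ± 0.32, adjusted p = 7.26e-05). The lineage factor Sox10 went from 3.09 and 4.69 to 18.8 and 19.6 CPM in midbrain (difference 2.00). Changes within midbrain were not tested by themselves. Aldh1a7 reached 81.5 and 91.1 CPM in midbrain from 2.71 and 7 CPM (3.07). The citrate transporter gene Slc13a5 rose from 0.697 and 0.477 to 15.2 and 15.8 CPM in cortex and was 2.66 and 1.67 and then 3.45 and 1.61 CPM in midbrain (4.45). Col22a1, the antisense transcript gene D030055H07Rik and the ligand gene Wnt8b were also among the 5 most positive (3.78, 6.56 and 4.88). In cortex D030055H07Rik rose from 0.581 and 0.636 to 9.16 and 7.3 CPM. Wnt8b rose from 0.349 and 0.239 to 3.11 and 1.73 CPM. Both were named for a mean of at least 10 CPM in some group, which only midbrain reached. For both the difference is larger than the rise in cortex, so the fitted change in midbrain was negative. The most negative difference was in Reg3g, at 0.38 and 0.835 CPM in midbrain mock and 128 and 115 CPM at 4 weeks (-11.56). Glycam1, a mucin-like glycoprotein, went from 17.2 and 15.2 to 0.183 and 0.576 CPM in cortex and from 2.88 and 1.86 to 10.6 and 9.37 CPM in midbrain (-7.45). Car9 went up in midbrain, from 2.71 and 4.24 to 22.9 and 26.4 CPM (-7.14). The water channel gene Aqp1 fell in cortex from 18.6 and 20.9 to 0.183 and 0.192 CPM (105-fold lower, interval 28.8 to 865, adjusted p = 1.49e-06). In midbrain Aqp1 was 4.18 and 5.26 CPM in mock and 6.49 and 4.95 CPM at 4 weeks (-6.91). Cbr2 was 7.81 and 7.38 and then 3.04 and 2.01 CPM (-6.89). In cortex at 4 weeks Car9, Aqp1 and Cbr2 held 1 to 3 reads, so their fitted differences depend on the prior count and are no bounds. Interferon-stimulated genes gave 11 of 29 tested with a more negative response in cortex and none with a more positive one, for example Ifit1 at 83.2 and 86.4 CPM in midbrain at 4 weeks (-2.88). Reactive and acute-phase genes gave 9 of 33 with a more negative response, retinoid pathway genes 5 of 21 and complement genes 5 of 23, and oligodendrocyte markers gave 4 of 14 with a more positive one and 2 with a more negative one. For Lcn2 and C3 the midbrain libraries at 4 weeks stood at 3430 and 3303 and 2880 and 2913 CPM (-3.02 and -2.62). The lipocalin Apod (-3.26) and Igf2 (-5.33) also differed, and the change of Gfra2 was more positive in cortex (2.10). Sox10, Aldh1a7, Ifit1, Lcn2, C3, Apod, Igf2 and Gfra2 were chosen for this comparison after their values were seen. Shared 3′ sequence was 42.1% for Cbr2 and 100% for Igf2, so their levels are uncertain. Aldh1a7 did not pass fitted on the compared groups alone (3.04), without 4-week library 1 (3.09), without 4-week library 2 (3.06), without midbrain 4-week library 1 (2.99) or without midbrain 4-week library 2 (3.16). Col22a1 did not pass with an offset for transcript length (3.50). Sox10 did not pass with an offset for transcript length (2.10), fitted on the compared groups alone (1.96), without 4-week library 1 (1.98), without 4-week library 2 (2.01), without midbrain 4-week library 1 (1.97) or without midbrain 4-week library 2 (2.03). Wnt8b did not pass without 4-week library 1 (4.40).

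**Figure D5:**
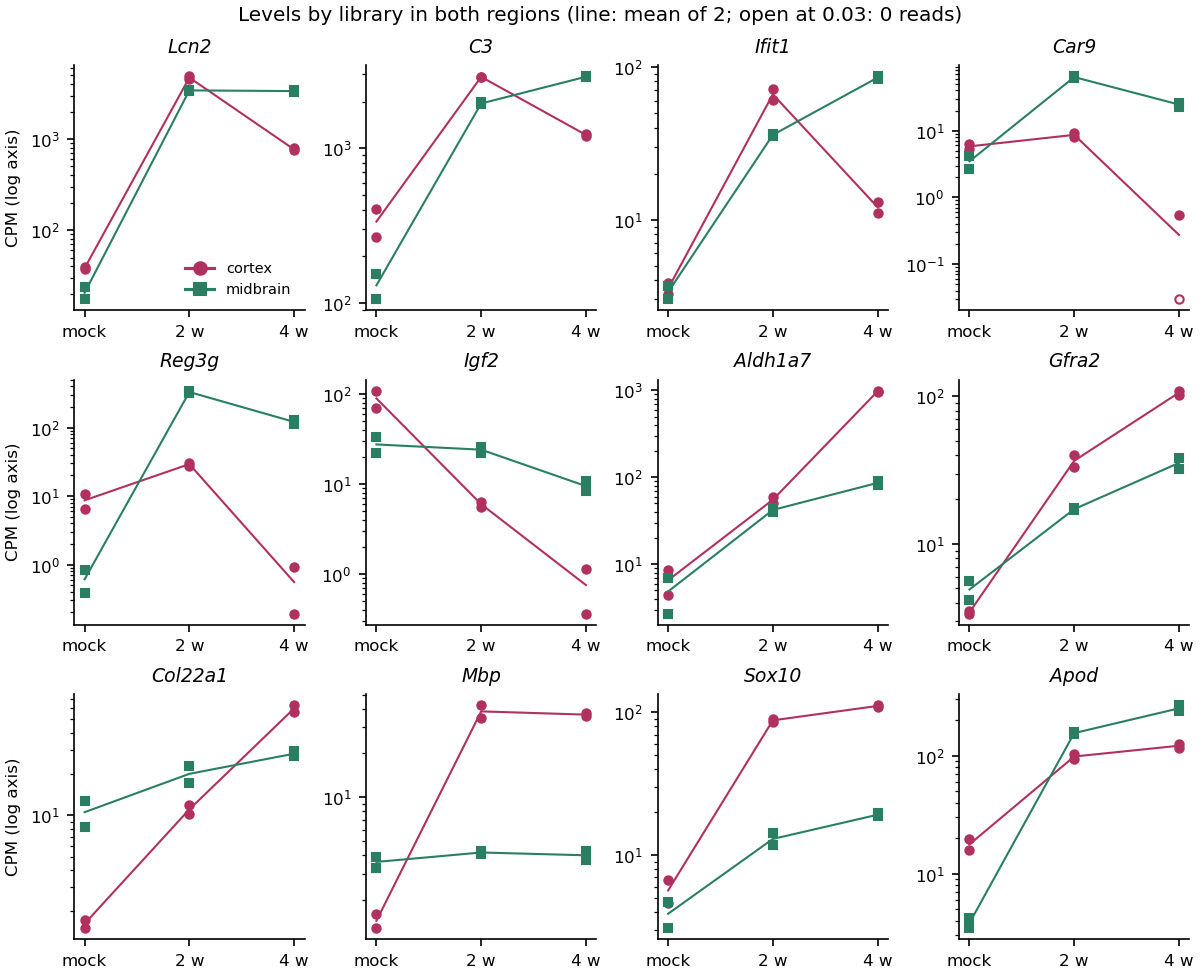
CPM on log axes in mock and at 2 and 4 weeks of shPTB for 12 genes in cortex (circles) and midbrain (squares), each point a library and each line the mean of 2. Lcn2, C3 and Ifit1 lie lower at 4 than at 2 weeks in cortex, and Mbp lies between 34.6 and 42.2 CPM in the cortex shPTB libraries and between 3.31 and 4.3 CPM in all 6 midbrain libraries.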

How the data were processed

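RNA of cultured astrocytes was reverse-transcribed with a biotinylated primer and second strands were made from random primers, per the labels' protocols; strand and molecular identifiers are not stated. The authors deposited, per the file headers, estimated counts of reads per transcript and TPM from Salmon (0.14.1), with cutadapt (2.3) and the mouse build mm10 named in the submitters' processing notes; the release of the annotation they used is, for Salmon, not given in the sources used here. Deposited TPM were not used, since they keep no depth. Estimated counts were summed per gene after matching 140137 of 140658 transcripts to GENCODE M21, and rounded to whole numbers. In all 12 libraries (6022098 to 11385761 reads), 14607 of 54356 genes passed edgeR's filterByExpr (minimum count 10, minimum total 15).

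All 6 groups were fitted together with edgeR 4.0.16 (R 4.3.3), TMM factors and the quasi-likelihood test, sharing 6 residual degrees of freedom. The mock pairs differed more than the shPTB pairs, while each gene's spread was shared over all 6 groups. P-values that involve mock libraries may therefore be too small. Deviations within the mock pairs of both regions correlated at 0.807, so the 6 degrees of freedom are not fully independent. P-values were adjusted over all tested genes (Benjamini-Hochberg), with 0.05 as the threshold, and the standard error is the log2 fold change divided by the root of F. The 3 contrasts were cortex 4 weeks against mock, 4 against 2 weeks, and the cortex response minus the midbrain response at 4 weeks; the first and last share the cortex libraries, and the first 2 share the 4-week libraries. Alternatives were RLE size factors, total reads, DESeq2 1.42.0, no filter, at least 5 CPM in 2 libraries, a length offset, a replicate block, no mitochondrial genes, only the compared groups, and leaving out each library. The fit was tested on simulated counts for cortex 4 weeks against mock (13351 genes, 200 of them changed). It recovered 8% of 1.5-fold, 10% of 2-fold, 74% of 4-fold and 96% of 8-fold changes. The simulation gave 97 calls against 5753 in the data, so the adjusted threshold was stricter there. These rates therefore need not hold for the data, where many more genes moved. A gene that did not pass may still have changed.

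The 49 gene lists and their anchors were chosen with earlier results of these data known, as was the comparison itself. Named are anchors, up to 4 rises and 4 falls per list (at least 5 CPM in the higher group, no overlap), the 12 largest rises and falls over all protein-coding genes (at least 10 CPM), the 5 largest each way in the other contrasts, and members a list is known by that did not pass; exceptions are said to be chosen after their values were seen, and a few genes that the rule names are not reported here. Motifs were searched in 1 RefSeq promoter per gene. A sterol element was also searched and was matched in 1 of 17 promoters of cholesterol synthesis genes (5.88%) against 0.796% of all promoters.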

Additional observations from a re-analysis of the deposited data

Results flagged for a closer look

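Responses at 4 weeks that differed between the regions, by the test of the difference itself (edgeR's quasi-likelihood test, adjusted over all genes), numbered 94 more positive and 278 more negative in cortex. Of the genes named in the text these are given as the log2 fold change in cortex minus that in midbrain, for midbrain astrocytes under the same treatment and times. For interferon and immune genes the differences were -2.88 (Ifit1), -3.21 (Oas1g), -10.23 (Tgtp2), -3.63 (Bst2), -1.46 (Fcgrt), -2.62 (C3), -1.91 (C4b) and -3.52 (Serping1). For acute-phase and reactive genes the differences were -3.02 (Lcn2), -11.56 (Reg3g), -5.00 (Lrg1) and -2.34 (Cd44). For oligodendrocyte genes the differences were 4.52 (Mbp) and 2.00 (Sox10). For receptors, peptides and neuronal genes the differences were 2.10 (Gfra2), -2.06 (Gfra1), 1.80 (Gria1), 3.30 (Npy), -2.82 (Penk), 1.74 (Ppp1r1b) and -1.57 (Stmn2). For retinoid, metabolic and transport genes the differences were 3.07 (Aldh1a7), -3.19 (Crabp1), 4.45 (Slc13a5), 3.14 (Slc7a11), 1.63 (Gstm5), -3.26 (Apod), -2.04 (Pltp), -2.26 (Fabp5), -6.89 (Cbr2), -1.73 (Ctsh) and -6.91 (Aqp1). For hypoxia-induced genes the differences were -7.14 (Car9) and -2.24 (Ndrg1). For growth, matrix and contractile genes the differences were -5.33 (Igf2), -2.15 (H19), 3.78 (Col22a1), -1.84 (Col1a1), 1.13 (Cnn1) and -7.45 (Glycam1). For transcription and signalling genes the differences were 3.05 (Mafa), -1.73 (Fos), 3.57 (Nkd1) and 4.88 (Wnt8b). Further differences were 6.56 (D030055H07Rik) and 2.08 (Sparcl1). Tgtp2, Car9, Aqp1 and Cbr2 held 0 to 3 reads in cortex at 4 weeks, so their fitted values depend on the prior count. No explanation was tested.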

How the results depend on the processing

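Of the 199 called genes named in the text, 194 had a value under all 13 alternatives for cortex 4 weeks against mock and 170 of them kept the call in each. The other 5 had none under at least 1, such as mitochondrial genes where these were left out. Lost calls are given beside their genes. Scaled to total reads, calls were 854 higher and 8347 lower for cortex 4 weeks against mock, 38 higher and 895 lower for 4 against 2 weeks and 78 higher and 463 lower for the difference between regions; mitochondrial RNA, which took a larger share of reads at 4 weeks, is counted in those totals. Fitted on the compared groups alone, calls were 1759 higher and 2502 lower against mock. That fit had fewer samples to estimate the spread and held no 2-week or midbrain pair. For 4 against 2 weeks, a fit that held no mock pair, the calls were 1234 higher and 1374 lower. For the difference between regions they were 27 higher and 137 lower. Mock pairs differed by more than 2-fold in 14.3% (cortex) and 12.1% (midbrain) of genes, and the 2-week and 4-week cortex pairs in 4.83 and 5.68%. With no filter on low counts the calls were 2706 higher and 3596 lower, 174 higher and 619 lower, and 205 higher and 549 lower in that order. With the length offset the difference between regions gave 59 higher and 190 lower; the causes of these moves were not tested. Leaving out 1 library at a time gave 1813 to 3137 higher and 1873 to 3294 lower genes for cortex 4 weeks against mock, 4 to 10 and 39 to 89 for 4 against 2 weeks, and 28 to 174 and 110 to 435 for the difference between regions. Where 1 library was left in a group, it was assumed to vary like the others. Without 4-week library 1 or 2 the lower calls against mock were 1873 and 1929, and without either 2-week or either 4-week library the calls of 4 against 2 weeks dropped to at most 10 higher and 89 lower. The difference between regions had 435 lower calls without cortex mock library 1 and 174 higher calls without cortex mock library 2. RLE size factors, the stricter filter, DESeq2 and the fit without mitochondrial genes kept all 6 counts within 1.5 times. Signs turned scaled to total reads for Apoe (-0.37), Clu (-0.31), Dcn (-0.13), Kcnj10 (-0.10) and Rbfox3 (-0.74), with the length offset for Clu (-0.67), Hspa5 (0.59), P2ry12 (-0.67) and Rcor1 (0.78). Leaving out 1 library turned further signs, with a range of -0.64 to 0.17 for Gfap, -0.19 to 0.02 for Hdac1 and -0.69 to 0.90 for Rbfox3. Except for Apoe, Dcn and Hspa5, those genes had not passed in the first place. Libraries of cortex mock and cortex 4 weeks share only a number: the deviations of same-numbered libraries correlated at -0.0116, while cortex and midbrain mock correlated at 0.807 and the other pairs of groups between -0.0192 and 0.0474. With the replicate number as a block, calls were 2895 higher and 3195 lower against mock, 92 higher and 345 lower for 4 against 2 weeks and 108 higher and 320 lower for the difference between regions. Depth limits calls on genes near 0.549 CPM, the level of 3 reads in the larger 4-week library.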

Other observations

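Members of the lists that the rule for named genes left out were looked at after the report's values were known. Glul, which makes glutamine from the glutamate that astrocytes take up, rose from 210 and 384 to 1121 and 1139 CPM (log2 fold change 1.93 ± 0.29, adjusted p = 0.000429). Sparcl1, a secreted protein of astrocytes, rose from 58.2 and 45.3 to 172 and 178 CPM (log2 fold change 1.76). The secreted chaperone gene Clu stood at 5452 and 9709 CPM in mock and 12487 and 12360 CPM at 4 weeks and did not pass (log2 fold change 0.71 ± 0.31, adjusted p = 0.0885), and the potassium channel gene Kcnj10 at 72.5 and 163 CPM in mock and 207 and 233 CPM at 4 weeks (log2 fold change 0.90). Chrdl1, a BMP antagonist of astrocytes, fell from 5.4 and 3.58 to 0.183 and 0.192 CPM (24.7-fold lower, interval 6.71 to 206, adjusted p = 0.000455). H2-T23, a non-classical MHC class I gene, was 1.28 and 18.7 CPM in mock and 61 and 54.4 CPM at 4 weeks and did not pass (log2 fold change 2.56 ± 1.16, adjusted p = 0.103). Glul did not pass with an offset for transcript length (0.42). Sparcl1 did not pass scaled to total reads (0.64).

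Over all tested genes, 391 had 0 reads in both 4-week libraries and 93 in both mock libraries. Of those at 0 reads at 4 weeks, 6 had over 10 CPM in both mock libraries.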
